A study of Mus musculus with 35 samples.

Results

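The 10 genes followed here are C3, Lama4, Tgm2, Avpr1a, Cd200, Dusp4, Cers4, Acoxl, Cyp1b1 and Rbms3. They were picked for lower RNA in cells sorted as slow-cycling than as fast-cycling, in the basal or spinous layer of mouse back skin. They are 10 of the 47436 gene names that occur in both sets of deposited tables (53715 names in back skin, 49585 in the other tissues). The values that chose them, of label-retaining (LRC) against non-label-retaining (nLRC) libraries of back skin, are given below as a description with no test. The levels in tail skin, palate and tongue, and the contrast of the bulge with the granular layer, were not part of that choice.

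The study measured RNA of sorted epithelial cells in 35 libraries of 13 groups, and by its title and design it compared epidermal stem cells that divide slowly with those that divide fast. Every mouse was C57BL/6J, 2 months old and of the genotype K5-tTA/pTRE H2B-GFP. With this tet-off pair the keratin 5 promoter drives a histone-GFP fusion until doxycycline, here given in the chow, stops it, and each division then dilutes the label. Doxycycline was given for 2 weeks before skin was taken and for 10 days before the oral tissues were taken. LRC, which kept the label, and nLRC, which had lost it, came from the basal layer of back and tail skin and the spinous layer of back skin (3 libraries a group), and from the basal layer of palate and tongue (2 libraries a group). The hair follicle bulge of back and of tail skin and the granular layer of back skin gave 3 libraries each. Label depends on an active keratin 5 promoter, so cells that diluted the label and cells that never made it cannot be told apart.

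The members belong to several pathways. C3 is the central protein of the complement cascade, Lama4 encodes a laminin alpha chain of basement membranes, and Tgm2 encodes tissue transglutaminase, which cross-links proteins. Avpr1a encodes the V1a vasopressin receptor, Cd200 a surface glycoprotein whose receptor restrains myeloid cells, and Dusp4 a nuclear phosphatase that inactivates MAP kinases. Cers4 encodes a ceramide synthase, Acoxl an acyl-CoA oxidase-like protein, Cyp1b1 a cytochrome P450 that the aryl hydrocarbon receptor induces, and Rbms3 an RNA-binding protein. In skin, ceramides are lipids of the barrier and of sebum, and Cd200 is known as a surface marker of hair follicle bulge cells.

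The promoters of 4 members are shown, since these genes stand for both outcomes in tail skin: C3 and Avpr1a had too few reads there to be tested, whereas Cers4 (450 to 1022 reads in a tail LRC or nLRC library) and Cyp1b1 (10 to 59 reads) had enough to be tested. Each is the RefSeq promoter window of GRCm38.p6, from 250 bases before to 50 bases after the annotated start, and reads 5′ to 3′ on the gene's own strand. Capitals mark motifs found on either strand, and no marked motifs overlap.
C3, chr17:57228087-57228386, minus strand: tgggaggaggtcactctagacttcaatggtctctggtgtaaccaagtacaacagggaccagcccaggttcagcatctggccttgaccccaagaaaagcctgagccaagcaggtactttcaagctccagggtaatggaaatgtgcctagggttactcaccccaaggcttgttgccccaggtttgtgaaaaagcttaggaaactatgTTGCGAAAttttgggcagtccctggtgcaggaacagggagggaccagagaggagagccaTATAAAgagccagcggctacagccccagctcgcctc
Avpr1a, chr10:122448249-122448548, plus strand: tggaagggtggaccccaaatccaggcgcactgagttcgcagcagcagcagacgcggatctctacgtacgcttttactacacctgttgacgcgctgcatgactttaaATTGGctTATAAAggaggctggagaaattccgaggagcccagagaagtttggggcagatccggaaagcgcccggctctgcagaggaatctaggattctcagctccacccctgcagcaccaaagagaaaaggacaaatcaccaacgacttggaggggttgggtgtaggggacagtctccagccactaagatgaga
Cers4, chr8:4493155-4493454, plus strand: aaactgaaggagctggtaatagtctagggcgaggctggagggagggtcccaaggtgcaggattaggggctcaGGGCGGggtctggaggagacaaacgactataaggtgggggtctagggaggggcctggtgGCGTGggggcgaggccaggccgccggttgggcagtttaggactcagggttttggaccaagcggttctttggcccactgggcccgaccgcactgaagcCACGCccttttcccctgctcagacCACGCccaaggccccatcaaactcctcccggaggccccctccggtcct
Cyp1b1, chr17:79715012-79715311, minus strand: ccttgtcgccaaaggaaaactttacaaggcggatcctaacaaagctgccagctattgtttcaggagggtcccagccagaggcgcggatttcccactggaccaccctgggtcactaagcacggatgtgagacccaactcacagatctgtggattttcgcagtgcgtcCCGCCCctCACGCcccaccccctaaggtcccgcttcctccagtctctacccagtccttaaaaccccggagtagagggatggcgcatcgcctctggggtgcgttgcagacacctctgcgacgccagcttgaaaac

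RefSeq promoter windows were found for 7 members, with 2 windows for Rbms3, and were searched for 7 motifs on both strands. The core motif of the aryl hydrocarbon receptor, GCGTG, stood in windows of Cers4, Cyp1b1, Cd200 and Rbms3, and in 32.4% of all 32851 windows. The C/EBP motif TTGCNNAA stood in those of C3 and Acoxl and in 10.8% of all windows. The letters of a TATA box, TATAAA, stood in those of C3, Avpr1a and 1 of the 2 of Rbms3 (13.6% of all windows). Their positions from the annotated start were 14 in C3, -137 in Avpr1a and -232 in Rbms3. A CCAAT box stood in Avpr1a and Acoxl (37.4%), and a GC box, GGGCGG, in Cers4, Cyp1b1 and Cd200 (35.7%). Neither the AP-1 motif TGANTCA (7.81%) nor the PPAR direct repeat (0.381%) was found in a member's window. These matches describe letters only, and binding was not measured.

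Back skin libraries held 9785944 to 20560481 reads assigned to genes, tail libraries 8421582 to 14093720, palate libraries 11680595 to 15641556 and tongue libraries 11847897 to 13034075. Whether replicate libraries came from different mice is not labelled, so the p-values below cover the spread between samples alone, and that spread may be technical. The RNA is bulk, so fewer cells that express a gene and less RNA per cell cannot be told apart. Levels are TPM, which rest on exon reads, and levels set side by side across back skin and the other tissues come from separately processed tables. Fold changes and CPM (scaled by TMM) rest on the deposited counts, which hold exon and intron reads. Back bulge library 2, with the fewest reads of back skin, stood apart from the other 2 bulge libraries. Its TPM was the lowest of the 3 for every member. The cycling markers Mki67 and Top2a summed to 84.6 to 109 TPM in LRC and 93.1 to 118 TPM in nLRC libraries of the back basal layer, and to 145 to 272 TPM in LRC and 78.8 to 115 TPM in nLRC libraries of tail skin, so in tail skin they lay on the side opposite to the labels slow-cycling and fast-cycling. They did so in palate as well, at 81.8 to 102 TPM in LRC and 49.2 to 80.9 TPM in nLRC libraries. In tongue the groups overlapped, at 29.2 to 82.4 and 78.5 to 81.9 TPM. The basal layer markers Krt5, Krt14 and Itgb4 were present in every group. The spinous layer markers Krt1 and Krt10 summed to 22668 to 38930 TPM in spinous LRC but 4023 to 9343 TPM in spinous nLRC libraries, not far from the 3953 to 4903 TPM of basal nLRC libraries.

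In back skin the members were low in LRC libraries of both layers and stood highest, as a set, in nLRC libraries of the spinous layer, as the map of levels in all libraries shows. In the basal layer every LRC library was below every nLRC library for 9 of the 10 members, against 8.88% of the 16574 genes tested, and in the spinous layer for all 10, against 21.3%. The members were picked on these libraries, so nothing is read from either count. The median log2 fold change over the members was -3.77 in the basal and -6.28 in the spinous layer, and that over all genes tested was -0.01 in each.

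**Figure D1:**
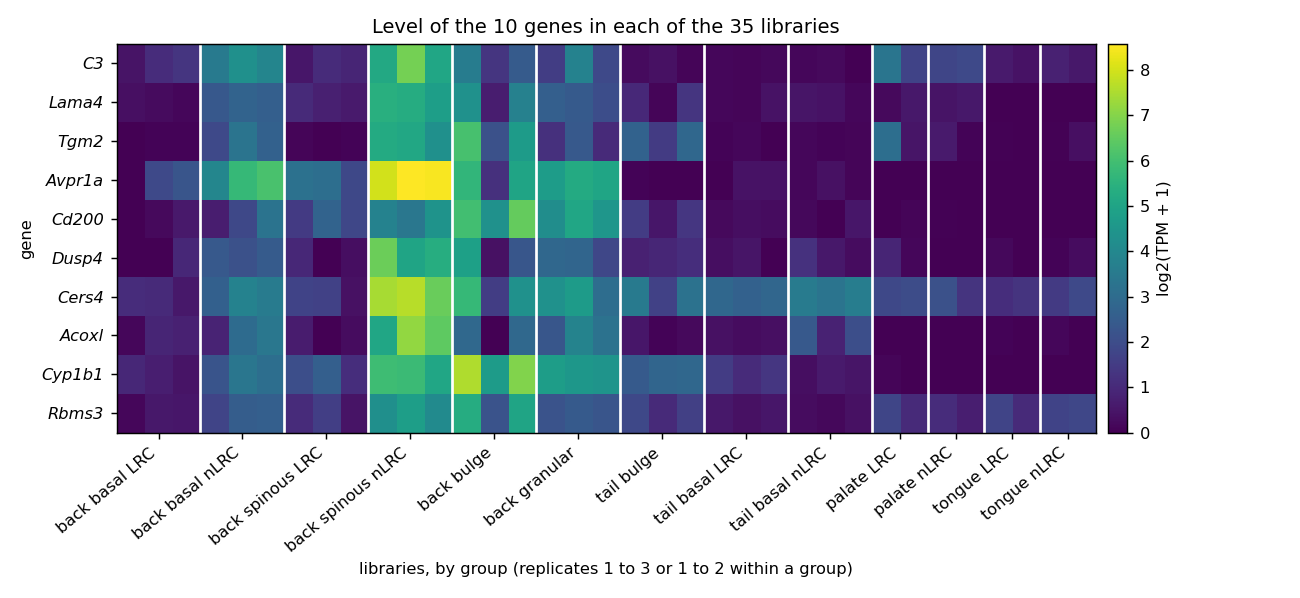
Level of the 10 genes, as log2(TPM + 1), in each of the 35 libraries, grouped by tissue and sorted population. The 3 back spinous nLRC libraries are bright for every gene, with Avpr1a at 255.5 to 380 TPM, and most palate and tongue cells are dark.

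Of the secreted and matrix genes, C3 (ENSMUSG00000024164.15, chromosome 17, 57203970 to 57228136, minus strand) had 0.37, 1.11 and 1.52 TPM in basal LRC libraries, against 10.2, 18.5 and 14.0 TPM in basal nLRC libraries. In the spinous layer C3 had 0.42, 1.06 and 0.86 TPM in LRC libraries, against 35.5, 109 and 32.9 TPM in nLRC libraries. The groups did not overlap in either layer, and nLRC library 2 was the highest in both. Lama4 (ENSMUSG00000019846.11, chromosome 10, 38965515 to 39110188, plus strand) had 0.28, 0.18 and 0.11 TPM in basal LRC libraries and 4.18, 5.71 and 5.04 TPM in basal nLRC libraries. Spinous levels of Lama4 were 1.02, 0.69 and 0.54 TPM in LRC libraries and 41.1, 38.4 and 27.2 TPM in nLRC libraries. Tgm2 (ENSMUSG00000037820.15, chromosome 2, 158116402 to 158146436, minus strand) was close to 0 in LRC libraries, with 8, 1 and 1 reads in the basal and 7, 6 and 2 reads in the spinous layer, against 48, 192 and 96 reads in basal nLRC and 600, 586 and 247 reads in spinous nLRC libraries. Exons of Tgm2 overlap those of Rprd1b on the opposite strand, whose level was even, at 20.04 to 28.2 TPM in spinous LRC and 23.1 to 27.1 TPM in spinous nLRC libraries. The log2 fold changes of C3, Lama4 and Tgm2 were -3.86, -4.40 and -4.78 in the basal and -6.35, -6.20 and -6.54 in the spinous layer.

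Avpr1a (ENSMUSG00000020123.6, chromosome 10, 122448499 to 122453452, plus strand) had the highest level of any member. Avpr1a had 8.24, 7.60 and 2.67 TPM in spinous LRC libraries, against 255.5, 380 and 363 TPM in spinous nLRC libraries. In the basal layer Avpr1a had 0, 2.75 and 3.79 TPM in LRC libraries, against 14.4, 52.6 and 67.6 TPM in nLRC libraries. The log2 fold changes were -4.35 in the basal and -5.99 in the spinous layer. The antisense gene Gm48877, whose span overlaps that of Avpr1a, had 13, 11 and 6 reads in spinous LRC and 616, 1068 and 639 reads in spinous nLRC libraries with a TPM of 0, and use of strand in the counts is not given in the sources used here. Cd200 (ENSMUSG00000022661.14, chromosome 16, 45382135 to 45409053, minus strand) had 0, 0.16 and 0.49 TPM in basal LRC and 0.61, 2.66 and 8.51 TPM in basal nLRC libraries. Cd200 had the smallest difference of the 10 in the spinous layer, with 1.74, 5.56 and 2.56 TPM in LRC and 12.8, 9.57 and 20.2 TPM in nLRC libraries, and its log2 fold change there was -2.54. Dusp4 (ENSMUSG00000031530.6, chromosome 8, 34807297 to 34819894, plus strand) had 0, 0 and 0.95 TPM in basal LRC and 4.31, 3.39 and 4.46 TPM in basal nLRC libraries. Spinous levels of Dusp4 were 0.92, 0 and 0.25 TPM in LRC and 98.3, 31.4 and 39.8 TPM in nLRC libraries, and its log2 fold change of -6.97 was the lowest of the members.

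Among the enzymes, the mean level in spinous nLRC libraries was 7.23 times that in basal nLRC libraries for Cyp1b1 and 15.3 times for Acoxl. Cers4 (ENSMUSG00000008206.16, chromosome 8, 4493026 to 4531680, plus strand) had 1.15, 1.02 and 0.48 TPM in basal LRC and 5.24, 13 and 10.7 TPM in basal nLRC libraries. Spinous levels of Cers4 were 2.29, 2.13 and 0.30 TPM in LRC and 173, 202 and 97.2 TPM in nLRC libraries. Its mean in spinous nLRC libraries was 16.3 times its mean in basal nLRC libraries, the largest such ratio of the 10. Acoxl (ENSMUSG00000027380.10, chromosome 2, 127838876 to 128123873, plus strand) was the member whose basal groups overlapped, with 0.12, 0.85 and 0.72 TPM in LRC and 0.82, 6.97 and 9.57 TPM in nLRC libraries. In the spinous layer Acoxl had 0.57, 0 and 0.21 TPM in LRC and 32.5, 145 and 87.2 TPM in nLRC libraries. Cyp1b1 (ENSMUSG00000024087.4, chromosome 17, 79701537 to 79715061, minus strand) had 0.96, 0.64 and 0.38 TPM in basal LRC and 3.65, 9.30 and 7.58 TPM in basal nLRC libraries. Cyp1b1 in the spinous layer had 3.16, 5.09 and 1.19 TPM in LRC and 59.3, 56.7 and 32.4 TPM in nLRC libraries. Rbms3 (ENSMUSG00000039607.15, chromosome 9, 116572746 to 117629913, minus strand), a gene whose span is 99.0% intron, had 0.11, 0.47 and 0.44 TPM in basal LRC and 2.41, 4.76 and 5.04 TPM in basal nLRC libraries. Rbms3 in the spinous layer had 1.07, 2.02 and 0.36 TPM in LRC and 18.4, 27.0 and 16.0 TPM in nLRC libraries. Log2 fold changes in the spinous layer were -6.88 for Acoxl and -6.86 for Cers4, against -4.47 for Rbms3 and -4.19 for Cyp1b1, and in the basal layer those of the 4 lay between -3.68 and -2.96.

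**Figure D2:**
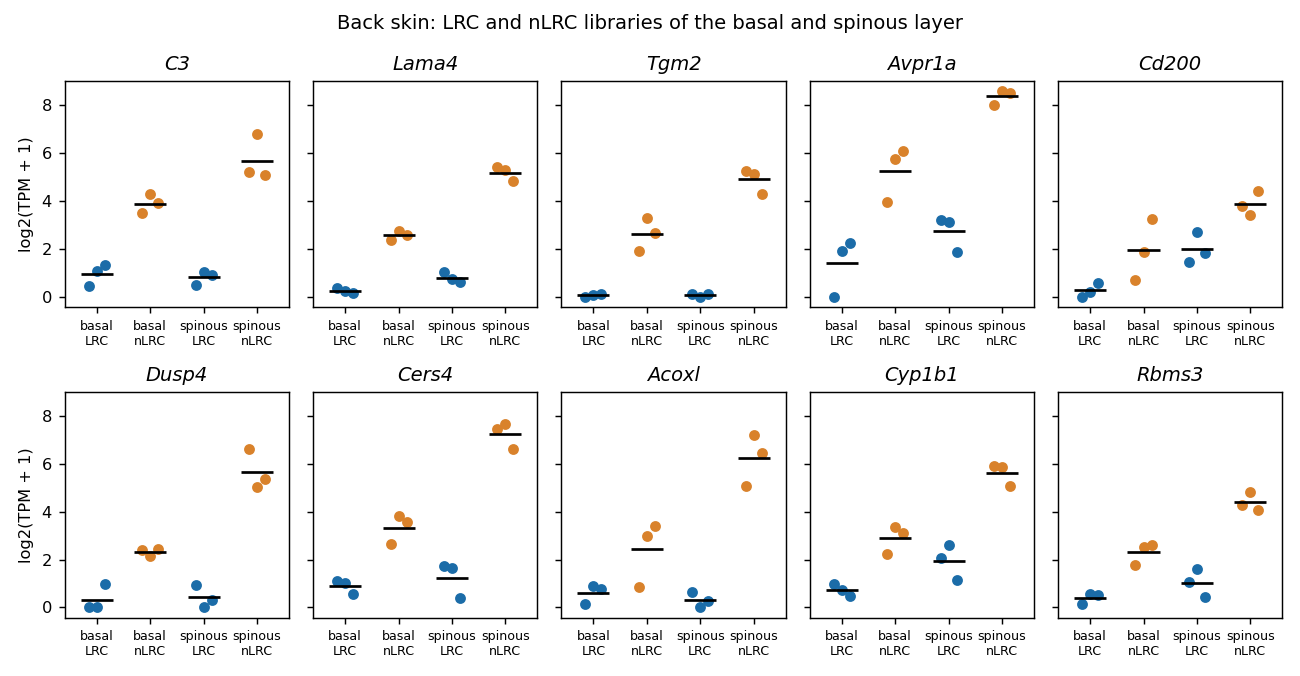
log2(TPM + 1) of each gene in the LRC (blue) and nLRC (orange) libraries of the basal and spinous layer of back skin, 3 libraries a group, with bars at the group mean. Basal LRC and nLRC points overlap for Acoxl, whose highest LRC library (0.85 TPM) is above its lowest nLRC library (0.82 TPM), and spinous points overlap for none of the 10.

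Sebocytes are the lipid-producing cells of sebaceous glands, and their markers moved with the members. Of 16 listed sebocyte markers 15 were tested, and 11 of these were lower in every LRC than in every nLRC library of the basal layer and 14 in the spinous layer. Over all genes tested these shares were 8.88% and 21.3%. The summed TPM of the 16 was 487 to 515 in LRC and 557 to 1035 in nLRC libraries of the basal layer, and 870 to 992 in LRC and 4309 to 9428 in nLRC libraries of the spinous layer. The 6 defining markers (Pparg, Scd3, Mc5r, Awat2, Elovl3, Soat1) summed to 0.76 to 10.4 TPM in basal LRC, 16.1 to 53.8 in basal nLRC, 4.27 to 20.4 in spinous LRC and 300 to 618 in spinous nLRC libraries, and none was at 0 reads in a whole group. All 10 cycling markers (34.5 to 66.0 TPM summed in LRC, 227 to 385 in nLRC libraries), 6 of 8 upper follicle markers (774 to 2760 and 3643 to 5039 TPM) and 6 of 8 melanocyte markers (9.72 to 12.0 and 26.8 to 46.2 TPM) were also lower in every spinous LRC than in every spinous nLRC library. The melanocyte marker Tyr was at 0 reads in spinous LRC libraries, and 5 of 6 spinous layer markers were higher in LRC libraries. Endothelial markers summed to 0.65 to 4.93 TPM in spinous LRC and 2.54 to 3.89 TPM in spinous nLRC libraries. The part of these cell types in the result was not tested.

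Over the 18 back skin libraries the gene closest to the mean of the standardised log2 CPM of the members was Arhgap24 (r = 0.977), followed by Mgst1 (0.968), Soat1 (0.967), Dapk1 (0.963) and Marcks (0.957). Mgst1 and Soat1 are on the sebocyte list. The closest gene to Cers4 alone was Mgst1 (r = 0.992), and the closest to Avpr1a was Aldh3a1 (0.963). Between members the correlation was 0.522 to 0.963 over 45 pairs, with a median of 0.849, highest for Lama4 with Cers4 and lowest for C3 with Cd200. Once group means were taken out, it was -0.152 to 0.902 with a median of 0.425. These libraries share their groups and depth, and genes were compared over the same 18 libraries, so no test was made.

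Relatives lay on the same side as some members and on the other side from others in these libraries, also as a description. The oxytocin receptor gene Oxtr, a relative of Avpr1a, had 0.06 to 0.75 TPM in basal LRC and 7.46 to 15.2 TPM in basal nLRC libraries, and 0.14 to 3.01 TPM in spinous LRC and 37.6 to 186 TPM in spinous nLRC libraries. Of 11 tested genes of peroxisomal β-oxidation, relatives of Acoxl, 10 were lower in every spinous LRC than in every spinous nLRC library, against 21.3% of all genes tested. Among these 10 the oxidase gene Acox2 had 0.09 to 0.88 TPM in spinous LRC and 7.10 to 23.9 TPM in spinous nLRC libraries. Of the ceramide synthesis genes besides Cers4, 5 of 11 were higher in spinous LRC libraries without overlap and 1 was lower. The share of all genes higher without overlap was not counted, for these lists or the markers above, so nothing is read from such counts. Cers3, which makes the very long ceramides of the barrier, had 48.6 to 58.9 TPM in spinous LRC and 12.95 to 28.6 TPM in spinous nLRC libraries. Transglutaminases besides Tgm2 ran the other way for 3 of 5 tested, and Tgm7 had 60.0 to 76.4 TPM in spinous LRC and 3.31 to 8.92 TPM in spinous nLRC libraries.

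Over all 13 groups, the spinous nLRC libraries that helped to pick the genes included, the members split by where they were highest. The share of all genes highest in each group was not counted, so nothing is read from this split. Mean TPM was highest in spinous nLRC libraries, without overlap with the next group, for Avpr1a (333 ± 67.6), Cers4 (158 ± 54.3), Acoxl (88.4 ± 56.5), C3 (59.1 ± 43.1), Dusp4 (56.5 ± 36.4) and Lama4 (35.6 ± 7.39; SD, n = 3). Mean TPM was highest in the back bulge for Cyp1b1 (112 ± 82.4), Cd200 (57.7 ± 36.6), Tgm2 (31.6 ± 32.0) and Rbms3 (24.6 ± 18.6; SD, n = 3), each overlapping the next group. Without bulge library 2 these 4 means were 155, 76.9, 45.6 and 35.1 TPM. Of the other bulge means, that of Avpr1a was 27.3 ± 24.3 TPM and that of Acoxl 4.31 ± 3.73 TPM (SD, n = 3).

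The bulge against the granular layer of back skin, the outermost living layer, was tested on libraries that did not enter the choice. Tgm2, Cyp1b1 and Rbms3 were higher in the bulge, and the other 7 did not pass the test. Tgm2 had 66.3, 3.41 and 24.9 TPM in bulge libraries, against 1.27, 4.31 and 1.02 TPM in granular libraries, where bulge library 2 fell within the granular range. By scaled counts it did not, at 48.5, 12.9 and 23.4 CPM in bulge and 1.83, 4.23 and 1.49 CPM in granular libraries. Its log2 fold change was 3.50 ± 0.62 (SE; adjusted p = 0.000447, edgeR quasi-likelihood test with Benjamini-Hochberg adjustment over all genes, as for every adjusted p from edgeR below). Cyp1b1 had 189, 24.8 and 122 TPM in bulge libraries, against 26.6, 22.5 and 20.8 TPM in granular libraries, and rose by 2.34 ± 0.37 on the log2 scale (adjusted p = 0.000184). Rbms3 had 39.1, 3.57 and 31.1 TPM in bulge libraries, against 3.62, 4.44 and 3.80 TPM in granular libraries. Its log2 fold change was 2.13 ± 0.54 (adjusted p = 0.00607). Bulge library 2 was below all granular libraries in TPM, but above them in scaled counts, at 51.3 against 43.2 to 46.7 CPM. That order rests on the TMM factor of bulge library 2, the lowest of the back skin libraries, which raised its CPM of every gene. Without this factor its 251 reads of Rbms3 were fewer per assigned read than those of each granular library. In the median gene with long introns, reads beyond exons made 27.9% in bulge library 2. They made 57.7 and 70.6% in the other bulge and 70.1 to 72.6% in granular libraries. The part of these differences in the value of Rbms3 was not tested.

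These 3 of 10 members compare with 17.5% of all 16574 genes called higher in this contrast and 31.5% called in either direction. The median log2 fold change over the 10 was 1.12, against 0.05 over all genes tested. Cd200 had 61.6, 19.2 and 92.1 TPM in bulge and 17.5, 32.9 and 21.8 TPM in granular libraries, and its log2 fold change of 1.39 ± 0.58 did not pass (adjusted p = 0.0758). Lama4 had 1.19 ± 0.51 (adjusted p = 0.0888) with all libraries and 1.60 without bulge library 2, where it passed (adjusted p = 0.00227). Dusp4 (1.04 ± 0.79), Cers4 (0.43 ± 0.60), C3 (0.05 ± 0.66), Avpr1a (-0.31 ± 0.70) and Acoxl (-1.05 ± 0.80) did not pass, with adjusted p of 0.34 to 0.968.

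Markers of endothelial cells, which line vessels, moved with the bulge. All 11 tested endothelial markers of 12 were higher in the bulge than in the granular layer, with a summed TPM of 1318, 35.8 and 341 in bulge libraries and 5.96, 2.78 and 2.52 in granular libraries. The defining marker Kdr was at 0 reads in the granular libraries. Of the melanocyte list 6 of 8 were higher, with a summed TPM of 14.0 to 478 in bulge and 13.1 to 22.6 in granular libraries, and no defining marker was at 0. Sebocyte markers summed to 160 to 1746 TPM in bulge and 1235 to 1793 TPM in granular libraries, with 0 of 15 tested markers higher and 2 lower. Fibroblast markers were higher in 4 of 9 tested (47.8 to 210 TPM summed in bulge, 9.79 to 39.2 in granular libraries), cycling markers in 10 of 10 (192 to 331 and 43.9 to 71.6 TPM) and bulge markers in 9 of 11 (4100 to 20238 and 2166 to 4091 TPM), and immune markers in 0 of 9 (37.2 to 144 and 165 to 654 TPM). The part of these cells in the 3 rises was not tested.

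Among relatives, the aryl hydrocarbon receptor gene Ahr fell by 2.75 on the log2 scale in the back bulge (SE 0.46, adjusted p = 0.000279), in the contrast in which its target gene Cyp1b1 rose. A link between these changes was not tested. The laminin genes rose in 6 of 10 cases, led by Lama5 (4.38 ± 0.49) and Lamb3 (3.22 ± 0.35), and Lama1 fell. Of 5 tested transglutaminase genes besides Tgm2, 1 rose (Tgm5, 2.34 ± 0.43) and 3 fell, among them Tgm7 (-4.02 ± 0.51) and Tgm3 (-4.28 ± 1.07). Of 11 tested ceramide synthesis genes besides Cers4, 2 rose and 7 fell, among them Sptlc3 (-2.30 ± 0.22) and Cers3 (-2.09 ± 0.28). Of 11 tested complement genes besides C3, 5 rose and 1 fell, the complement regulator gene Cd55 (-3.60 ± 0.45). Of the shorter lists, 2 of 11 genes of peroxisomal β-oxidation rose and 3 fell, 1 of 8 MAP kinase phosphatase genes rose and 4 fell, and 1 of 5 genes of the aryl hydrocarbon receptor list rose. Rbms1 and Rbms2 moved in opposite directions, Oxtr did not pass, and no CD200 receptor gene had enough reads to be tested in any fit.

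**Figure D3:**
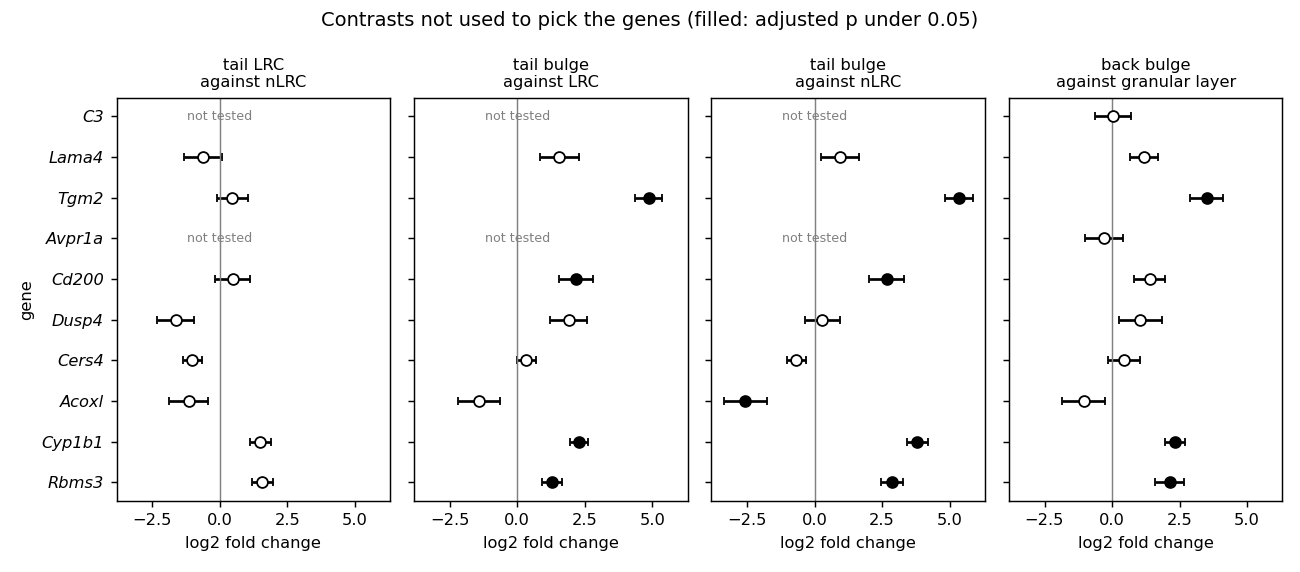
log2 fold change of each gene, with its standard error, in 4 contrasts whose libraries were not used to pick the genes; filled points have an adjusted p under 0.05 (edgeR). Tgm2, Cyp1b1 and Rbms3 are filled in all 3 bulge contrasts, where Tgm2 was tested in tail skin only through its bulge libraries. No point is filled for LRC against nLRC of tail skin, in the fit without a replicate block.

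In tail skin most members were low. C3 averaged 0.0933 ± 0.0833 TPM in tail and 14.2 ± 4.18 TPM in back basal nLRC libraries, and Avpr1a 0.167 ± 0.125 TPM in tail and 44.8 ± 27.4 TPM in back, whereas Cers4 stood at 10.4 ± 1.31 TPM in tail and 9.65 ± 3.99 TPM in back basal nLRC libraries (SD, n = 3 each). TPM may not be on the same scale in both sets of tables, as Rprd1b averaged 6.88 TPM in tail and 22.6 TPM in back basal nLRC libraries. By CPM, scaled within each tissue, Cers4 averaged 73.0 in tail and 28.5 in back, C3 0.296 and 14.6, and Avpr1a 0.209 and 24.3. Equal levels of Cers4 are therefore not read from its TPM. C3 had 1 to 14 reads and Avpr1a 0 to 4 reads in the 9 tail libraries, too few to pass the low-count filter, so neither was tested. The other 8 were tested in LRC against nLRC in the fit without a replicate block. Of these 0 passed, against 4.6% of the 14993 genes tested, 3.12% higher and 1.48% lower. Values with the block are given below. At an unadjusted p under 0.05 there were 4 of 8, against 22% of all genes (3305), and DESeq2 called 2, against 9.78% (1466). The median log2 fold change over the 8 was -0.07, against 0.02 over all genes.

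Cyp1b1 and Rbms3 lay in tail skin on the side opposite to back skin. Cyp1b1 had 1.88, 1.07 and 1.59 TPM in LRC libraries, against 0.26, 0.53 and 0.41 TPM in nLRC libraries. The groups did not overlap, and the log2 fold change of 1.51 ± 0.38 did not pass (adjusted p = 0.0558). The share of all genes without overlap in tail skin was not counted, here or for the genes below. With the replicate number as a block it was 1.53 and passed (adjusted p = 0.0363), as it did in DESeq2 (adjusted p = 0.0149). With the block 3 of the 8 members passed, against 0 without it, and 2055 of all genes, against 690. Rbms3 had 0.45, 0.32 and 0.44 TPM in LRC libraries, against 0.23, 0.14 and 0.30 TPM in nLRC libraries. Its log2 fold change was 1.57 ± 0.39 (adjusted p = 0.0512), and with the block 1.60 (adjusted p = 0.0216). Rbms3 also passed without LRC library 1 (1.84, adjusted p = 0.0172) and without nLRC library 3 (2.02, adjusted p = 0.0294), and Cyp1b1 without LRC library 2 (1.73, adjusted p = 0.0358). On exon TPM, limma gave Rbms3 0.20 on the log2(TPM + 1) scale (adjusted p = 0.676), a scale that understates changes of low genes, and Cyp1b1 0.84 (adjusted p = 0.0481). Reads of Rbms3 per unit of its TPM were 531, 1519 and 939 in LRC and 378, 414 and 580 in nLRC libraries, a higher number of reads for the same exon level in 2 of the 3 LRC libraries than in any nLRC library. In the median gene with long introns, reads beyond exons made 57.9 to 69.8% in LRC and 41.0 to 58.1% in nLRC libraries of tail skin. The part of this difference in the value of Rbms3 was not tested.

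Cers4, Dusp4, Acoxl and Lama4 had negative values in tail skin, the direction they had in the back. Cers4 had 6.26, 5.38 and 6.09 TPM in LRC libraries, against 10.8, 8.95 and 11.5 TPM in nLRC libraries, with no overlap. Its log2 fold change of -1.01 ± 0.35 did not pass (adjusted p = 0.141), and with the block it was -0.99 and passed (adjusted p = 0.0262). It passed as well with only LRC and nLRC libraries in the fit (-1.03, adjusted p = 0.0197). Among the sebocyte markers of tail skin, 3 of 14 tested fell and 1 rose, the 16 listed summed to 164 to 183 TPM in LRC and 204 to 277 TPM in nLRC libraries, the 6 defining ones to 1.21 to 4.56 and 5.55 to 20.7 TPM, and none of the 6 was at 0 reads in a group. Their part in the value of Cers4 was not tested. Acoxl had 0.31, 0.21 and 0.29 TPM in LRC libraries, against 4.32, 0.78 and 3.17 TPM in nLRC libraries. TPM did not overlap, but the scaled counts did, at 0.548, 8.05 and 2.43 CPM in LRC and 13.1, 5.32 and 5.95 CPM in nLRC libraries, where LRC library 2 had 543 reads per unit of TPM, against 29.0 and 110.3 in the other LRC libraries and 23.7 to 73.1 in nLRC libraries. The log2 fold change of Acoxl was -1.15 ± 0.72 (adjusted p = 0.368), and -2.46 without LRC library 2 (adjusted p = 0.0621). Dusp4 (-1.63 ± 0.69, adjusted p = 0.202) and Lama4 (-0.62 ± 0.72), Tgm2 (0.47 ± 0.57) and Cd200 (0.48 ± 0.65) did not pass, and Tgm2 had 1 to 5 reads in each of these 6 libraries.

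Markers of the hair follicle moved with the tail LRC libraries. All 8 upper follicle markers and 8 of 12 bulge markers rose in LRC against nLRC, where the bulge list summed to 1658 to 3147 TPM in LRC and 341 to 623 TPM in nLRC libraries. The upper follicle list summed to 471 to 917 TPM in LRC and 85.2 to 102 TPM in nLRC libraries, and no defining marker of either list was at 0. The part of follicle cells in the values of Cyp1b1 and Rbms3 was not tested. Ahr, the receptor gene upstream of Cyp1b1, had 25.3 to 34.1 TPM in tail LRC and 7.18 to 9.43 TPM in tail nLRC libraries, and rose by 1.59 ± 0.18 on the log2 scale (adjusted p = 0.000895). It was the only one of the 4 tested genes of its list, and the only gene of all 10 lists of relatives, that passed in this contrast. Cyp1a1, also on the list of Ahr, was near 0 in both groups, at 0 to 0.16 TPM in LRC and 0.07 to 0.43 TPM in nLRC libraries. The part of Ahr in the value of Cyp1b1 was not tested.

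**Figure D4:**
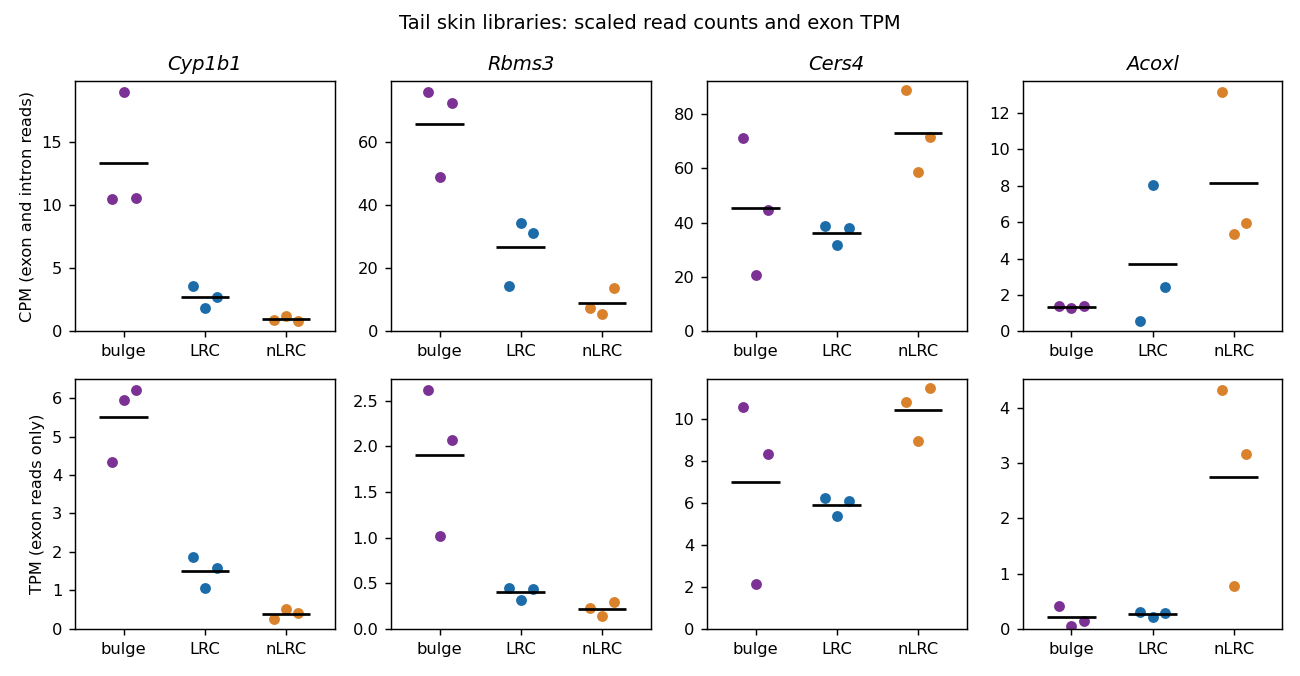
Cyp1b1, Rbms3, Cers4 and Acoxl in the bulge (purple), LRC (blue) and nLRC (orange) libraries of tail skin, as CPM of exon and intron reads (top) and TPM of exon reads (bottom), 3 libraries a group with bars at the mean. For Acoxl the LRC library at 8.05 CPM lies among the nLRC libraries in the top row and at 0.21 TPM, below all of them, in the bottom row.

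In the tail bulge 4 members were called higher than in tail LRC libraries, against 10.1% of all genes called higher and 19.1% called in either direction. Tgm2 and Dusp4 would not have passed the low-count filter without the bulge libraries, so their share of any count is fixed in part by the filter. Of the 6 members that would have passed the filter without the bulge libraries, 3 were called higher. Tgm2 had 5.49, 1.81 and 6.20 TPM in bulge libraries, against 0.07, 0.10 and 0 TPM in LRC libraries, and its log2 fold change was 4.86 ± 0.49 (adjusted p = 0.000108). Its reads were 166, 59 and 72 in bulge libraries, against 5, 5 and 4 in LRC libraries, which are under the filter's minimum count of 10, so Tgm2 was tested only because it is high in the bulge. Cyp1b1 had 4.34, 5.95 and 6.21 TPM in bulge libraries, above all 3 LRC libraries, and rose by 2.29 ± 0.35 (adjusted p = 0.00139). Cd200 had 1.87, 0.44 and 1.55 TPM in bulge libraries, against 0.15, 0.26 and 0.21 TPM in LRC libraries (log2 fold change 2.18 ± 0.63, adjusted p = 0.0348). Rbms3 had 2.62, 1.02 and 2.07 TPM in bulge libraries, also above all LRC libraries (1.30 ± 0.37, adjusted p = 0.0348). Both calls were lost without LRC library 1 or 3 or bulge library 1 or 3, and that of Cd200 also without LRC library 2, with adjusted p of 0.0704 to 0.134. Dusp4 (1.91 ± 0.69, adjusted p = 0.0849), Lama4 (1.55 ± 0.72), Cers4 (0.33 ± 0.35) and Acoxl (-1.42 ± 0.79) did not pass. Without LRC library 1 Acoxl passed (-1.93, adjusted p = 0.0478).

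Against tail nLRC libraries, which share the same bulge libraries, 4 members were higher in the bulge and 1 was lower, among 13.2% of all genes called higher and 10.1% called lower (23.3% in either direction). Without Tgm2, which had 4, 1 and 3 reads in nLRC libraries and again was tested only through the bulge, and without Dusp4, 3 of 6 were higher and 1 was lower. The log2 fold changes were 5.33 ± 0.52 for Tgm2 (adjusted p = 5.9e-05), 3.79 ± 0.39 for Cyp1b1 (8.44e-05), 2.87 ± 0.40 for Rbms3 (0.000637) and 2.66 ± 0.65 for Cd200 (0.0149). Acoxl had 0.42, 0.05 and 0.15 TPM in bulge libraries, below all nLRC libraries, and fell by 2.57 on the log2 scale (SE 0.79, adjusted p = 0.0413). Its call was lost without any 1 of the 6 libraries (adjusted p 0.0513 to 0.144), and that of Cd200 without nLRC library 1 or 2 or bulge library 1 (0.0541 to 0.065). Cers4 did not pass (-0.68 ± 0.35, adjusted p = 0.2), but passed with the replicate block (-0.77, adjusted p = 0.032) and without bulge library 1 (-1.20, adjusted p = 0.0311). Endothelial markers rose in 10 of 11 tested against LRC and in 11 of 11 against nLRC, with a summed TPM of 105, 26.4 and 153 in bulge libraries, 0.76 to 1.20 in LRC and 0.39 to 1.58 in nLRC libraries, and no defining marker was at 0. Bulge library 2, the lowest of the 3 in endothelial markers, was also the lowest in TPM of Tgm2, Cd200 and Rbms3, and not of Cyp1b1. The same library was lowest for members not called higher, Cers4 (10.57, 2.13 and 8.36 TPM), Lama4 (1, 0.09 and 1.51 TPM) and Acoxl. C3 was highest there (0.32 TPM). Fibroblast markers rose in 3 of 7 against LRC and 4 of 7 against nLRC (82.5 to 132 TPM summed in bulge, 32.9 to 45.0 in LRC and 53.3 to 64.2 in nLRC libraries). Cycling markers fell in 9 of 10 against LRC, at 43.8 to 98.0 TPM in bulge and 238 to 517 TPM in LRC libraries. The part of endothelial, fibroblast or cycling cells in these rises was not tested.

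Relatives in the tail bulge included Ahr, which fell by 2.92 on the log2 scale against LRC (SE 0.19, adjusted p = 9.04e-06), Cers2, which rose (1.60 ± 0.17), Sptlc3 (-2.30 ± 0.25) and Lamb3 (1.29 ± 0.15). Of the lists, 4 of 8 laminin genes rose and 0 fell, 2 of 11 ceramide synthesis genes rose and 3 fell, and 1 of 5 transglutaminase genes rose (Tgm5) and 1 fell (Tgm3). Of 7 MAP kinase phosphatase genes besides Dusp4, 1 rose, Dusp6 (2.10 ± 0.30, adjusted p = 0.00106).

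**Figure D5:**
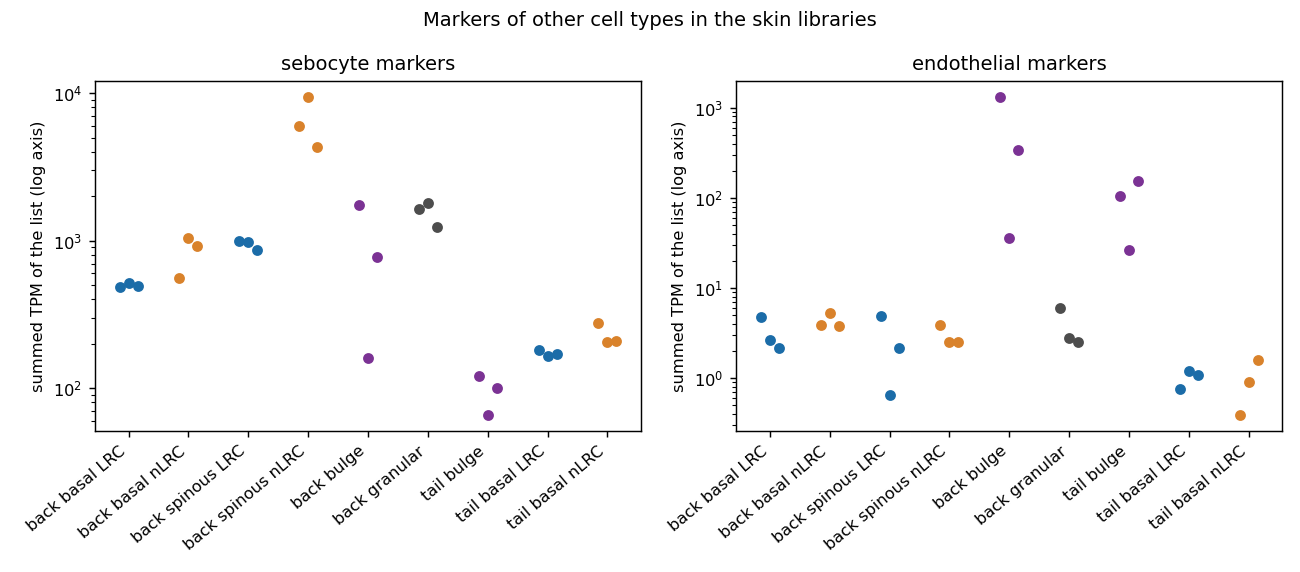
Summed TPM of the 16 sebocyte and 12 endothelial markers in each skin library, on log axes (LRC blue, nLRC orange, bulge purple, granular grey). Sebocyte sums peak in back spinous nLRC libraries (4309 to 9428 TPM) and endothelial sums in the bulge libraries (26.4 to 1318 TPM).

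In palate and tongue most members were near or at the limit of detection. Avpr1a had 0 reads in all 8 libraries, which allows up to 0.192 to 0.257 CPM by library size, counting error only. Cyp1b1 had 0 reads in the 4 tongue libraries, and 3 and 2 reads in palate LRC and 0 reads in both palate nLRC libraries. Cd200, Acoxl and Dusp4 had 11, 24 and 20 reads over the 4 palate libraries and 2, 24 and 11 over the 4 tongue libraries. Those 5 genes were not tested there. Palate libraries held 17 and 4 reads of Acoxl in LRC and 3 and 0 in nLRC. For Dusp4 the reads were 17 and 2 in LRC and 1 and 0 in nLRC. Nothing is read from counts this low.

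Of the 5 members tested in the oral tissues, 0 passed in palate, where 0% of 14923 genes did (1082 at an unadjusted p under 0.05, of which 1 was a member), and 0 passed in tongue, where 0.0067% did (696 unadjusted, with 0 members). DESeq2 called 0 members in either. Tgm2, which passed the filter only with the palate LRC libraries, had 7.66 and 0.40 TPM in palate LRC libraries, against 0.52 and 0.06 TPM in palate nLRC libraries. One library set that value, as palate LRC library 2 lay within the nLRC range, and the log2 fold change of 3.48 ± 1.19 did not pass (adjusted p = 0.64). Without palate LRC library 1 it was 0.42. C3 had 9 and 2.30 TPM in palate LRC and 2.47 and 2.71 TPM in palate nLRC libraries (0.60 ± 0.57, adjusted p = 0.704). All 4 palate levels of C3 were above its levels in tail skin, which reached 0.32 TPM. Cers4 had 2.65 and 2.99 TPM in palate LRC and 3.34 and 1.46 TPM in palate nLRC libraries, and 1.20 and 1.45 TPM in tongue LRC and 1.74 and 2.73 TPM in tongue nLRC libraries (-0.61 ± 0.31 in tongue, adjusted p = 1).

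Rbms3 was the best counted member in the oral tissues, with 155 to 1391 reads a library. Rbms3 had 2.47 and 1.01 TPM in palate LRC and 1.14 and 0.66 TPM in palate nLRC libraries (0.95 ± 0.59, adjusted p = 0.642). In tongue it had 2.36 and 1.05 TPM in LRC and 2.28 and 2.58 TPM in nLRC libraries (-1.01 ± 0.59, adjusted p = 1). Lama4 did not pass in either tissue (-0.67 ± 0.90 in palate and -0.01 ± 1.57 in tongue). Of the 6 defining sebocyte markers, Elovl3 and Mc5r were at 0 reads in all oral libraries, and the 6 summed to 0.80 to 4.76 TPM. In palate nLRC library 2 reads beyond exons made 21.2% in the median gene with long introns, against 47.9 to 54.0% in the other palate libraries, and leaving it out called no member.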

How the data were processed

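RNA of sorted cells was measured in 35 libraries made with a low-input stranded total RNA kit, per the labels' protocols. For each library the authors deposited 1 table that gives, per the file headers, the count of total gene reads of each gene beside its TPM and RPKM. The build is mm10, per the submitters' processing notes. How reads were aligned and counted, and whether strand was used, is not given in the sources used here. Overlapping and antisense genes are therefore uncertain. The deposited counts were found to hold exon and intron reads and the deposited TPM exon reads only: between libraries, reads per unit of TPM varied with an SD of 0.00988 (log2) in genes without introns and 0.412 in genes with long introns of back skin, and 0.0105 and 0.389 in the other tissues. This check and the intron shares rest on the deposited counts and TPM, and the authors' RPKM was not used.

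Counts were tested with edgeR 4.0.16 (R 4.3.3; quasi-likelihood, TMM scaling, filterByExpr with a minimum count of 10 and a minimum total of 15), with Benjamini-Hochberg adjustment over all genes and a threshold of 0.05. Fits held 18 back, 9 tail or 8 oral libraries. SEs were taken as the log2 fold change divided by the root of the F statistic. No test was made on the back LRC and nLRC libraries, which chose the genes. Alternatives were DESeq2 1.42.0, median-of-ratios scaling, the unfiltered table, a block for the replicate number, only the 2 groups compared, limma 3.58.1 on log2(TPM + 1) of genes with a TPM of at least 1, and each library left out. The tests were tested on simulated data. Replicate libraries all differed beyond sampling noise, with a chi-square of at least 23.1 per degree of freedom.

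The members and all gene lists were chosen with earlier results of these data known. All 10 members are named, with up to 4 relatives per comparison by smallest p and the defining markers. Tgm3, Tgm5, Tgm7, Lama1, Cers3, Acox2, Oxtr, Dusp6, Rprd1b, Gm48877, Rbms1, Rbms2, Cyp1a1, and Ahr in the back, were named after their values were seen. Closest genes are those of highest Pearson r with log2 CPM (prior count 2).

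Groups share replicate numbers. As a check, same-numbered libraries were compared by their deviations from the group means. The correlation was 0.326 to 0.585 for tail LRC and nLRC and 0.125 to 0.404 for tail bulge and nLRC. It was 0.233 to 0.322 for back basal and 0.163 to 0.291 for back spinous LRC and nLRC. The numbers were taken to pair these groups, but the main fits held no replicate block, which was run as an alternative. The labels do not explain the numbers.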

Additional observations from a re-analysis of the deposited data

Results flagged for a closer look

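The log2 fold change of LRC against nLRC had opposite signs in tail skin and in the back basal layer for Cyp1b1 and Rbms3. For Cyp1b1 it was 1.51 in tail skin, where all 3 LRC libraries lay above all 3 nLRC libraries, and -3.57 in the back basal layer, where all 3 LRC libraries lay below all 3 nLRC libraries. For Rbms3 it was 1.57 in tail skin and -3.56 in the back basal layer, again with no overlap in either tissue. The difference between the tissues was not tested. In tail skin the share of all genes without overlap was not counted, so nothing is read from the lack of overlap. The back values chose these genes as low, and neither tail value passed the test in the fit without the replicate block. Both passed with the block, and the replicate numbers were taken to pair tail LRC with nLRC libraries.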

How the results depend on the processing

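Of 525 recomputed values of single members, 456 kept their direction and their side of the threshold, 30 came to pass, 22 no longer passed, and 17 changed sign without passing in either setting. Tgm2, Cyp1b1 and Rbms3 in the back bulge passed under each alternative run. So did Cyp1b1 in both tail bulge contrasts and Rbms3 in tail bulge against nLRC. Tgm2 did so too in both tail bulge contrasts. It was tested in tail skin only through its bulge libraries, so nothing is read from these passes.

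Members called in tail LRC against nLRC numbered 0, and 2 with DESeq2, 4 with no filter, 3 with the replicate block, 1 with only the 2 groups, 1 with limma on TPM, and 0 to 1 without 1 library. In tail bulge against LRC the 4 became 2 to 4 without 1 library and 2 without replicate 3 in any tail group, whose files carry another code. In tail bulge against nLRC the 5 became 3 with limma, 3 to 4 without 1 library and 3 without replicate 3 in any tail group. With no filter, 2 passed in palate, 1 in tongue, and 5 in back bulge against granular layer, where leaving out 1 library gave 3 to 4; Cd200 passed there with DESeq2 (1.41, adjusted p = 0.0457). The members' median in back skin was -2.25 in the basal and -4.85 in the spinous layer with limma on TPM, a scale that shrinks low genes, and -4.23 to -3.51 and -6.49 to -5.97 without 1 library. Median-of-ratios scaling changed none of these counts.

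Over all genes, the 690 calls of tail LRC against nLRC became 1466 with DESeq2, 2128 with no filter, 2055 with the block, 342 to 596 without 1 library and 135 without replicate 3. Tail bulge against LRC gave 2867, and 957 without replicate 3 and 1823 without LRC library 3. Tail bulge against nLRC gave 3489, and 2248 with limma and 1339 without replicate 3. Palate gave 0, and 19 with DESeq2, 269 with no filter, 6 with the block and 1601 without nLRC library 1. Tongue gave 1, and 101, 236 and 29 under those first 3 settings, 6 with only its own groups, 45 without palate nLRC library 2 and 0 without any 1 of its libraries. Back bulge against granular layer gave 5223, and 2240 with only the 2 groups and 2621 with limma. The causes were not tested.

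Replicate numbers were not taken to pair tail bulge with LRC (correlations 0.426, -0.0436 and 0.194; 3 of 6 libraries closest to their own number), back bulge with granular layer (0.141, 0.0437 and 0.158; 6 of 6), palate (0.283) or tongue (0.0471) LRC with nLRC. With the replicate block these gave 4, 4, 0 and 0 members and 4138, 5970, 6 and 29 genes. For the paired contrasts, the block changed no member's call beyond Cyp1b1, Rbms3 and Cers4. In palate and in tongue 5 members had at most 24 reads over 4 libraries, too few for a test there.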
